A study of Mus musculus with 8 samples.

Results

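The genes described here belong to the antioxidant response driven by the transcription factor NRF2, which Nfe2l2 encodes. The list held 10 genes, Nfe2l2, Hmox1, Nqo1, Gclc, Gclm, Gsr, Txnrd1, Srxn1, Prdx1 and Slc7a11. They were picked by symbol and not by a limit on measured values, but with earlier results of these data known. Of these, 9 were found among the 16486 gene entries of the deposited expression values, and Nqo1 was not analysed here. The values are normalized log2 expression from bulk RNA-Seq of blood monocytes (MCs), which had been sorted as CD11b+Ly6G- cells with high (Ly6Chigh) or low (Ly6Clow) surface Ly6C.

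All animals were male mice aged 20 to 22 weeks. Control (CT) mice were untreated C57/BL6, and T1DM mice were C57/BL6 that received STZ (streptozotocin, which is toxic to pancreatic beta cells) by intraperitoneal injection at 50 mg/kg daily over 5 days, starting at 8 weeks. T2DM mice were db/db, which are homozygous for a leptin receptor mutation and become obese and diabetic. The 8 libraries were 2 of CT Ly6Chigh, 2 of CT Ly6Clow, and 1 each of T1DM Ly6Chigh, T1DM Ly6Clow, T2DM Ly6Chigh and T2DM Ly6Clow MCs. Each library came from a pool of 5 mice and the CT pools were sequenced in duplicate, so the spread between CT replicates, and every p-value below, may measure technical variation only.

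NRF2 is held at low levels by KEAP1, an adaptor that presents it to a ubiquitin ligase for degradation. Oxidants and electrophiles modify KEAP1, and NRF2 then accumulates, pairs with a small MAF protein and binds antioxidant response elements, whose core reads TGACNNNGC. The repressor BACH1 binds the same elements and is released by haem. Target genes make and recycle glutathione, keep thioredoxin and peroxiredoxin reduced, and break down haem, and in MCs and macrophages the response is known to limit oxidative damage and inflammatory gene expression. NRF2 activity is controlled largely through the stability of the protein, so the Nfe2l2 transcript is only 1 of its inputs.

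The core element was searched on both strands of RefSeq promoter windows (GRCm38.p6), each with 250 bases before and 50 bases after an annotated transcript start. A window was found for 7 of the 10 genes, and 5 of these held the core in a window, Nfe2l2, Gclm, Prdx1, Txnrd1 and Srxn1. Over all genes with a window, 14% held it. No core lay in the windows of Slc7a11 and Nqo1 or in the other 2 windows of Txnrd1, and Hmox1, Gclc and Gsr were not searched. The 5 matches are shown because this is the element that NRF2 is known to bind. Each is printed 5′ to 3′ on the strand that reads TGAC, with the core in capitals.
Nfe2l2, chr2:75704885-75704913 (- strand): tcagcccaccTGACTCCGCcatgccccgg
Gclm, chr3:122245413-122245441 (- strand): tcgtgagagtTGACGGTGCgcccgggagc
Prdx1, chr4:116685456-116685484 (- strand): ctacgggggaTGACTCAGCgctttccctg
Txnrd1, chr10:82859104-82859132 (- strand): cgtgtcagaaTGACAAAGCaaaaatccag
Srxn1, chr2:152105542-152105570 (- strand): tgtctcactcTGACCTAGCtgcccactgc

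The core lay 232 bases before the start in Nfe2l2, 126 bases before it in Gclm, 125 bases before it in Prdx1 and 84 bases before it in Txnrd1, counted from the nearest base of the core. In Srxn1 it lay 28 bases after the start. The whole stretch upstream of the Prdx1 start, chr4:116685349-116685598 on the + strand, is printed because Prdx1 was the gene with both a match and a called difference between the subsets. The core reads on the other strand there and appears as its reverse complement in capitals.
Prdx1 upstream: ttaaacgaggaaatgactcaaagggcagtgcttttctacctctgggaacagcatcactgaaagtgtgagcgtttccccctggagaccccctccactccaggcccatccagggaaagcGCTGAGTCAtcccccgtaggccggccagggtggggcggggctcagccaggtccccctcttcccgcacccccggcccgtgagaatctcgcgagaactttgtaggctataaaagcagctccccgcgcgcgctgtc

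The sort was visible in the libraries. Ly6c2, which encodes Ly6C, had log2 values of 8.56 to 8.72 in the 4 Ly6Chigh libraries and 2.69 to 4.07 in the 4 Ly6Clow libraries, and the MC genes Itgam and Csf1r were at 9.62 or higher in all 8. Cx3cr1, usually a marker of Ly6Clow MCs, ran from 7.97 to 8.63 in Ly6Chigh and from 7.72 to 8.14 in Ly6Clow libraries, so it did not mark the Ly6Clow subset here. Nr4a1 and Itgal, also used as Ly6Clow markers, overlapped too. Nr4a1 ran from 7.03 to 8.11 in Ly6Chigh and from 7.80 to 8.28 in Ly6Clow libraries. Itgal ran from 9.45 to 10.16 and from 9.63 to 10.32. Of a list of 10 nonclassical (Ly6Clow) MC markers, 9 were lower in Ly6Chigh over the 8 libraries. Of the same list 6 were called lower, against 6.76% of all genes. Other cell types moved with the subsets. The 10 B cell markers, summed on the linear scale, came to between 307 and 661 in Ly6Chigh and between 5243 and 6167 in Ly6Clow libraries, and all 10 were called lower in Ly6Chigh. The 8 NK cell markers summed to between 27.5 and 123 and to between 170 and 889, and 7 were called lower. The part of these cells in the results below was not tested, and in bulk RNA a smaller share of MCs and less RNA per MC cannot be told apart.

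The first comparison asked how the antioxidant genes differed between Ly6Chigh and Ly6Clow MCs. Gsr, Hmox1 and Prdx1 were more than 2-fold higher in Ly6Chigh MCs, over the 3 mouse groups, but only Gsr with libraries scaled to equal sums. Their values did not overlap between the subsets, as was the case for 16.4% of all genes in this direction. These 3 members stand for 3 separate branches of the response, the recycling of glutathione, the breakdown of haem and the removal of peroxide. Nfe2l2 itself was 1.35-fold higher, a difference that rested on the scaling. The genes that make glutathione, Gclc, Gclm and Slc7a11, and the remaining thioredoxin genes, Txnrd1 and Srxn1, overlapped between the subsets.

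Calls required a 2-fold change (log2FC beyond 1 in either direction) and a limma p-value, adjusted by Benjamini-Hochberg across the 16486 genes, below 0.01. With all 8 libraries and the mouse group as a covariate, 3 of the 9 genes were called higher in Ly6Chigh and 0 lower, against 5.37% of all genes called higher, 6.76% called lower and 12.1% called in either direction, and 4 of the 9 were under an unadjusted p of 0.05, against 43.2%. The median log2FC of the 9 genes was 0.34, against -0.08 for all genes. In the plot of member values, the red and blue points separate for these 3 genes and mix for most of the others.

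**Figure D1:**
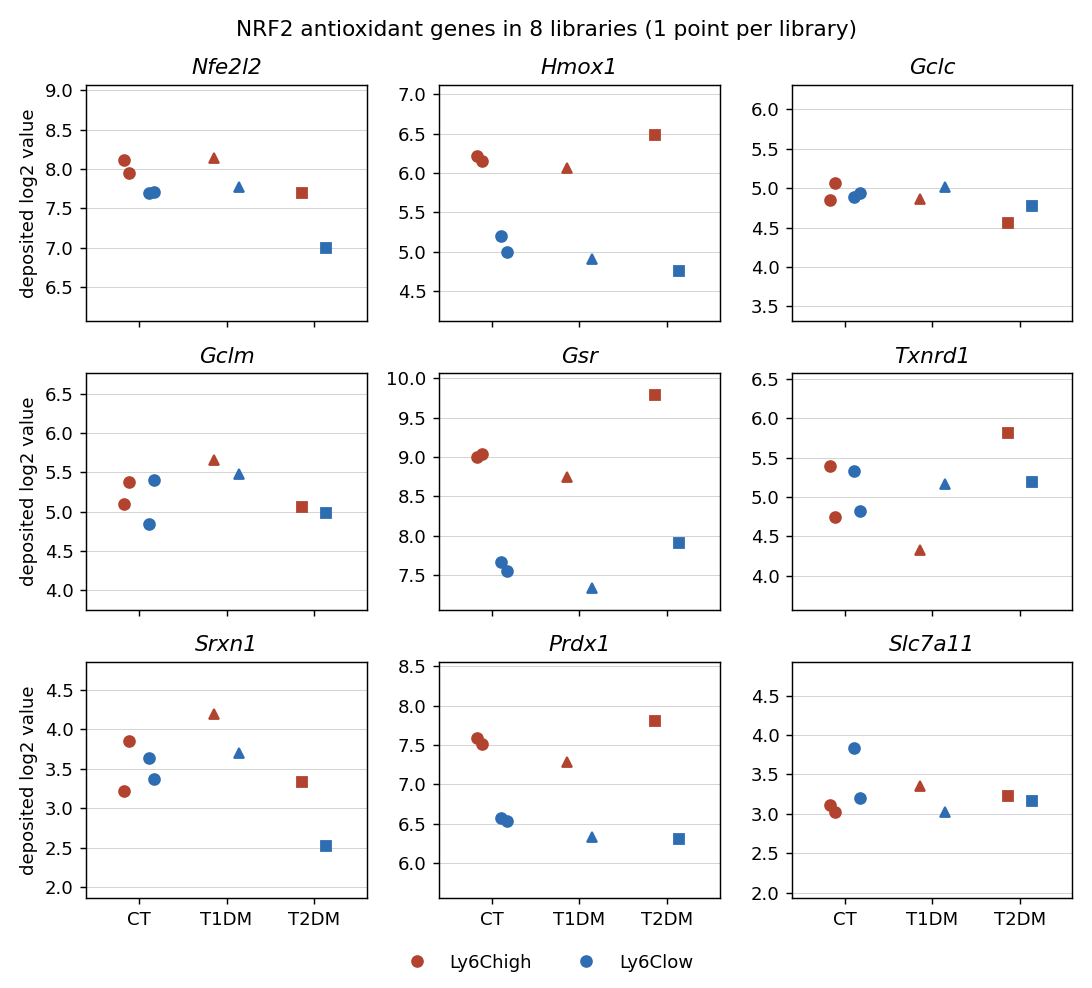
Deposited log2 value (y axis, log2) of the 9 NRF2 genes in each library, by mouse group (x axis), with 1 point per library, red for Ly6Chigh and blue for Ly6Clow MCs. Every panel spans the same number of log2 units. All Ly6Chigh points lie above all Ly6Clow points for Hmox1, Gsr and Prdx1.

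Nfe2l2 (chr2:75675513-75704663) encodes NRF2. Its log2 values were 8.11 and 7.95 in CT Ly6Chigh, 8.13 in T1DM Ly6Chigh and 7.70 in T2DM Ly6Chigh, and 7.69 and 7.71 in CT Ly6Clow, 7.76 in T1DM Ly6Clow and 7.00 in T2DM Ly6Clow. The Ly6Chigh value was the larger within each mouse group, but the 2 subsets overlapped because T2DM Ly6Chigh lay below T1DM Ly6Clow. The log2FC was 0.43 (SE 0.09, 95% interval 0.22 to 0.65, limma adjusted p = 0.0076, n = 4 against 4), below the 2-fold limit. It came to 0.13 when the libraries were scaled to equal sums (adjusted p = 0.258) and to 0.16 after quantile normalization (adjusted p = 0.267).

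Hmox1 (chr8:75093618-75100593) encodes haem oxygenase 1, which degrades haem to biliverdin, iron and carbon monoxide. Among Ly6Chigh libraries it read 6.21 and 6.15 for CT, 6.06 for T1DM and 6.48 for T2DM on the log2 scale, against 5.19, 5.00, 4.91 and 4.75 for the Ly6Clow libraries in that order. The lowest Ly6Chigh library stood well above the highest Ly6Clow library. The log2FC of 1.26 (SE 0.14, interval 0.94 to 1.58, limma adjusted p = 0.000211) is a 2.40-fold difference.

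Gsr (chr8:33653238-33698162) encodes glutathione reductase, which returns oxidized glutathione to its reduced form with NADPH. The Ly6Chigh log2 values were 9.001 and 9.037 for CT, 8.741 for T1DM and 9.781 for T2DM, and the Ly6Clow values 7.661 and 7.547 for CT, 7.341 for T1DM and 7.906 for T2DM. The subsets were set apart in every mouse group, and T2DM had the highest value of both. This was the largest log2FC of the 9 genes, at 1.53 (SE 0.10, interval 1.30 to 1.75, limma adjusted p = 1.08e-05), or 2.88-fold.

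Prdx1 (chr4:116685599-116700000) encodes peroxiredoxin 1, a cytosolic enzyme that reduces peroxides with electrons from thioredoxin. CT MCs gave log2 values of 7.59 and 7.52 for Ly6Chigh and 6.57 and 6.53 for Ly6Clow, T1DM MCs 7.28 and 6.34, and T2DM MCs 7.80 and 6.31. No Ly6Clow library reached a Ly6Chigh one, and the log2FC was 1.11 (SE 0.11, interval 0.86 to 1.36, limma adjusted p = 0.000106), or 2.16-fold. Of the 31-base stretches in Prdx1 transcripts, 15.4% also occur in other genes, so part of its reads could have been assigned elsewhere, whereas Hmox1, Gsr and Nfe2l2 share none.

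Non-overlap in this direction was found for 3 of the 9 genes and for 16.4% of all genes, and in the opposite direction for 0 of the 9 and 16.3% of all. When each library was scaled to the same linear sum, the median of all genes moved from -0.08 to -0.38, and the log2FC came to 1.23 for Gsr, 0.96 for Hmox1 and 0.81 for Prdx1, so that only Gsr stayed past the 2-fold limit. Prdx1 was also at 0.89 after quantile normalization and at 0.99 without the T2DM libraries.

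The 5 other genes gave log2FC between -0.13 and 0.34, with limma adjusted p-values of 0.301 to 0.888. Srxn1 (chr2:152105524-152111376), for sulfiredoxin, which repairs over-oxidized peroxiredoxins, was at 0.34 (interval -0.19 to 0.88), and Gclm (chr3:122245487-122267215), for the modifier subunit of glutamate-cysteine ligase, was at 0.12 (interval -0.22 to 0.47) and at -0.18 with equal sums. Txnrd1 (chr10:82833951-82897724), for the cytosolic thioredoxin reductase, was at -0.06 (interval -0.63 to 0.51). Gclc (chr9:77754535-77794489), for the catalytic subunit of the ligase, was at -0.07 (interval -0.37 to 0.23). Slc7a11 (chr3:50364936-50499087), for the cystine transporter that supplies the ligase with cysteine, was at -0.13 (interval -0.68 to 0.42) and at 0.06 after quantile normalization. None of the 5 intervals reached a 2-fold difference in either direction.

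Within CT mice alone, the only pair of single groups with replicates on both sides, 2 of the 9 genes were called, Gsr and Prdx1, both higher in Ly6Chigh, against 3.52% of all genes called, 2.1% called higher and 1.43% called lower, and 4 of the 9 were under an unadjusted p of 0.05, against 37.7%. Gsr had a log2FC of 1.41 (SE 0.06, interval 1.24 to 1.58, limma adjusted p = 0.00494) and Prdx1 of 1.01 (SE 0.06, interval 0.82 to 1.19, adjusted p = 0.00696). Hmox1 was at 1.09 (interval 0.76 to 1.41, adjusted p = 0.0145) and Nfe2l2 at 0.33 (interval 0.11 to 0.54, adjusted p = 0.0618), and neither was called, although Hmox1 was called when genes with a mean log2 value under 1 were left out (adjusted p = 0.00532) and at an adjusted p limit of 0.05. The 5 other genes lay between -0.45 and 0.11, with adjusted p-values of 0.335 to 0.999. With any of the 4 CT libraries left out, or without the variance trend, 0 genes of the whole table were called, so these fits say nothing about single genes. The log2FC stayed between 1.36 and 1.47 for Gsr and between 0.97 and 1.04 for Prdx1 when a CT library was left out.

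In the diabetic mice a subset has 1 library, so the difference has no replicate check. Gsr and Hmox1 were more than 2-fold higher in Ly6Chigh in both models, and Prdx1 in T2DM only. Past 2-fold in either direction were 27.9% of all genes in T1DM and 29.1% in T2DM, and the members were near these shares. For Gsr the difference of Ly6Chigh minus Ly6Clow was 1.41 in CT, 1.40 in T1DM and 1.87 in T2DM. For Hmox1 it was 1.09, 1.15 and 1.73, and for Prdx1 1.01, 0.95 and 1.49. Nfe2l2 ran from 0.33 in CT and 0.37 in T1DM to 0.70 in T2DM. In each of these 4 genes T2DM had the widest gap between the subsets and the CT and T1DM values were nearly equal.

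Txnrd1 had no common direction, with a difference of -0.01 in CT, -0.83 in T1DM and 0.62 in T2DM. Slc7a11 went from -0.45 in CT to 0.33 in T1DM and 0.06 in T2DM. The plot of subset differences shows the 3 groups on the same side of 0 for Gsr, Hmox1, Prdx1, Nfe2l2, Srxn1 and Gclm, with values down to 0.04 for Srxn1 and 0.08 for Gclm, and on both sides for Gclc, Slc7a11 and Txnrd1.

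**Figure D2:**
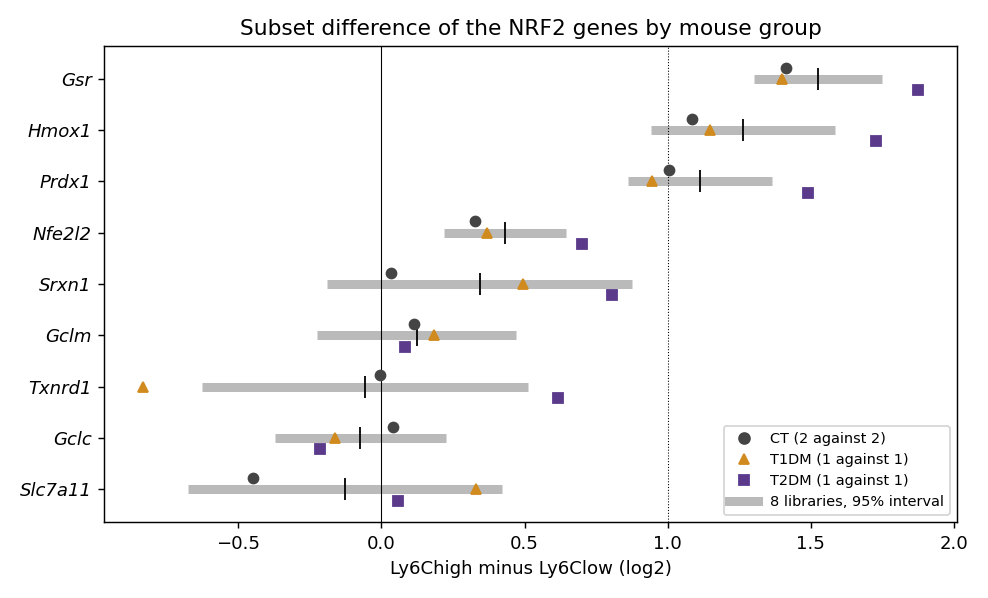
Ly6Chigh minus Ly6Clow difference (x axis, log2) of each NRF2 gene in CT (2 libraries against 2), T1DM and T2DM mice (1 against 1), with the difference over all 8 libraries (black tick) and its 95% interval (grey bar). The dotted line marks a 2-fold difference. Gsr, Hmox1 and Prdx1 lie near or past it in every mouse group, at 1.41, 1.09 and 1.01 in CT, and T2DM gives their highest points.

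Whether diabetes changed the subset difference itself was tested with T1DM and T2DM libraries together against CT. The fit had no term for T1DM against T2DM, so differences between the models counted as error. That can widen the SE, which was 0.46 for Gsr, and weakens the test. By limma 0 of the 9 genes were called, as were 0% of all genes, and 0 of the 9 were under an unadjusted p of 0.05, against 6.58% of all genes. The change in the subset difference was 0.35 for Hmox1 (SE 0.27, interval -0.28 to 0.98, adjusted p = 0.885), 0.22 for Gsr (adjusted p = 0.957), 0.21 for Prdx1 (adjusted p = 0.930) and 0.21 for Nfe2l2 (adjusted p = 0.955). Without the T2DM libraries it was -0.015 for Gsr and -0.059 for Prdx1. The interval for Hmox1 holds both no change and a subset difference almost doubled.

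The second comparison set diabetic against CT MCs. T1DM and T2DM share the CT libraries as controls. A NextSeq 500 was used for CT and a HiSeq 4000 for diabetic libraries, so diabetes and sequencer cannot be told apart in it. None of the 9 genes differed by 2-fold from the CT mean of its subset in any of the 4 diabetic libraries, while 10.1% of all genes did in T1DM Ly6Chigh, 8.81% in T1DM Ly6Clow, 13.8% in T2DM Ly6Chigh and 10.8% in T2DM Ly6Clow. The plot of diabetic minus CT values shows the members spread on both sides of 0.

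**Figure D3:**
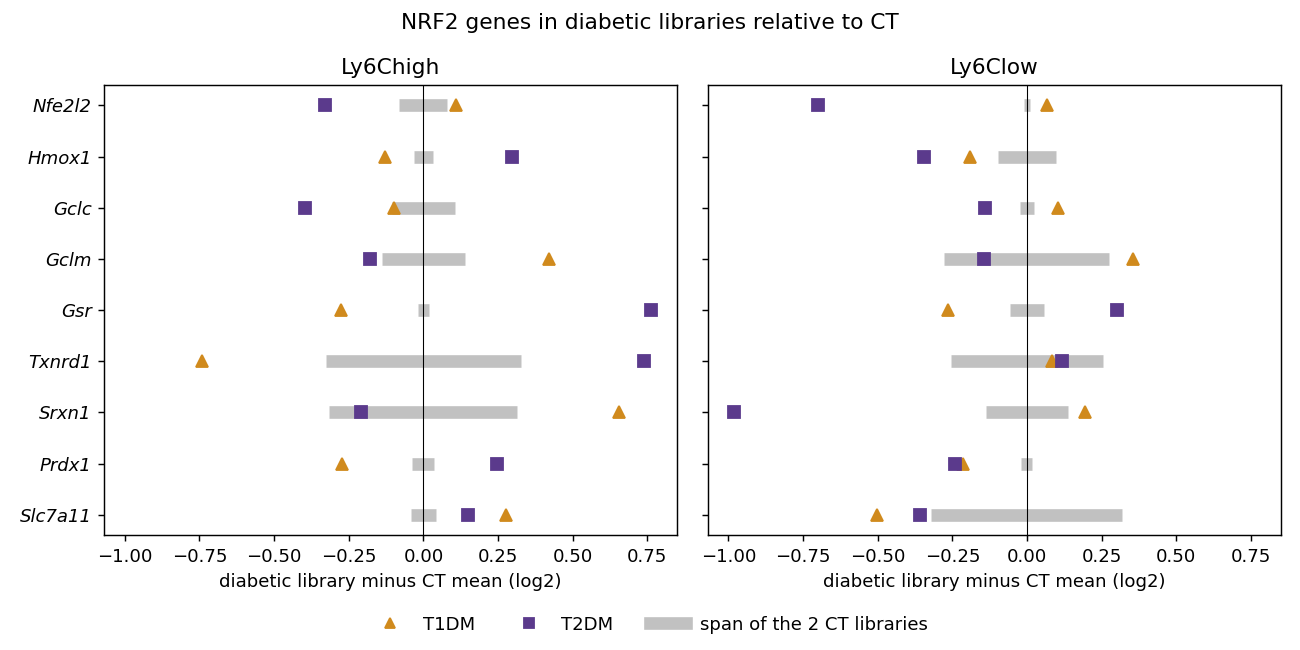
Value of the single diabetic library minus the CT mean of the same subset (x axis, log2) for each NRF2 gene, in Ly6Chigh (left) and Ly6Clow MCs (right). Grey bars span the 2 CT libraries. Gsr lies at 0.76 in T2DM Ly6Chigh and at -0.28 in T1DM Ly6Chigh, on opposite sides of CT.

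In T1DM MCs, Gclm and Srxn1 lay above and Gsr and Prdx1 below CT in both subsets. Gclm was 0.42 above the CT mean in Ly6Chigh (5.66 against 5.10 and 5.38) and 0.35 above it in Ly6Clow (5.48 against 4.85 and 5.40). Both T1DM libraries were above both CT libraries of their subset, as they were for Srxn1, at 0.65 and 0.20 over the CT mean. For Srxn1 the CT replicates were 0.63 and 0.28 apart, and with 1 CT library left out its values ran from 0.34 to 0.97 in Ly6Chigh and from 0.057 to 0.33 in Ly6Clow. Gsr lay 0.28 below the CT mean in Ly6Chigh and 0.26 below it in Ly6Clow, and Prdx1 lay 0.27 and 0.21 below it, each outside both CT libraries. Over both subsets together, limma gave Gclm a log2FC of 0.39 (SE 0.19, unadjusted p = 0.0685) and Gsr one of -0.27 (SE 0.12, unadjusted p = 0.0531), both with an adjusted p of 1.00. The 7 other genes lay between -0.33 and 0.42.

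By limma 0 of the 9 genes were called between T1DM and CT, 0 were under an unadjusted p of 0.05, and 0% of all genes were called, with 551 genes (3.34%) under an unadjusted p of 0.05. The T1DM value lay beyond both CT libraries by more than these differed for 5 of the 9 genes in Ly6Chigh and 4 of the 9 in Ly6Clow, against 39.7% and 39.1% of all genes. Erythroid and platelet transcripts moved with T1DM. The 8 erythroid markers summed to 38064 and 31487 in T1DM Ly6Chigh and Ly6Clow, against 20496 to 24239 in CT, and the 8 platelet markers to 818 and 879, against 378 to 504. All 8 of each list had a positive log2FC, 5 erythroid and 6 platelet markers were under an unadjusted p of 0.05, and 0 were called. Their part in the T1DM values was not tested.

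In T2DM MCs, Nfe2l2 was lower and Gsr higher than CT in both subsets. Nfe2l2 lay 0.33 below the CT mean in Ly6Chigh and 0.70 below it in Ly6Clow, where the CT replicates were 0.16 and 0.02 apart. Gsr lay 0.76 and 0.30 above it, with CT replicates 0.04 and 0.11 apart. Gclc was the other gene below CT by more than the replicate gap in both subsets, by 0.40 in Ly6Chigh and 0.14 in Ly6Clow.

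Nfe2l2 and Gsr did not pass the test over both subsets, where Nfe2l2 had a log2FC of -0.52 (SE 0.12, interval -0.78 to -0.25, limma adjusted p = 0.105) and Gsr of 0.53 (SE 0.12, interval 0.26 to 0.81, adjusted p = 0.112). Srxn1 was at -0.60 (SE 0.29, adjusted p = 0.628), with a value 0.98 below the CT mean in Ly6Clow and 0.21 below it in Ly6Chigh, the latter within the CT span and at 0.11 above CT without CT Ly6Chigh replicate 2. The 6 other genes lay between -0.27 and 0.43, with adjusted p-values of 0.754 to 0.998. So 0 of the 9 were called, against 0.297% of all genes, and 2 of the 9 were under an unadjusted p of 0.05, against 8.94%. The T2DM value lay beyond both CT libraries by more than these differed for 6 of the 9 genes in Ly6Chigh and 6 in Ly6Clow, against 45.3% and 41.5% of all genes.

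The summed neutrophil markers were highest in the T2DM Ly6Chigh library. The 8 neutrophil markers analysed, of a list of 10 with Ly6g and Camp not among the analysed genes, summed to 1023 there and to between 162 and 186 in the other Ly6Chigh libraries. In Ly6Clow they summed to 134 in T2DM and to between 29.0 and 34.5 in CT and T1DM. Mmp8 carried most of the Ly6Chigh sum, with a log2 value of 9.70 in T2DM against 6.99 to 7.28, and S100a8 was at 6.90 against 1.14 to 2.49, while Retnlg was at -1.55 against 1.46 to 3.87 and Cxcr2 at 2.79 against 2.81 to 3.07. Between T2DM and CT over both subsets, 3 of the 8 NK cell markers were called lower and 2 of the 8 classical MC markers were called higher. The part of these transcripts in the T2DM values of Gsr and the other genes was not tested. Without the T2DM libraries, the subset difference of Gsr was 1.41 (limma adjusted p = 2.91e-05), that of Hmox1 1.11 (adjusted p = 0.000579) and that of Prdx1 0.99 (adjusted p = 0.000241), the last no longer past the 2-fold limit.

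T2DM and T1DM libraries were run on the same sequencer, and their comparison does not use CT as a side. Gsr was higher and Nfe2l2, Srxn1 and Gclm were lower in T2DM in both subsets, and Txnrd1 was higher in Ly6Chigh with nearly equal values in Ly6Clow. For Gsr the differences were 1.04 in Ly6Chigh and 0.56 in Ly6Clow, and for Nfe2l2 they were -0.44 and -0.77. Srxn1 was at -0.86 and -1.18, with values of 4.19 in T1DM and 3.33 in T2DM Ly6Chigh, and 3.70 in T1DM and 2.52 in T2DM Ly6Clow MCs. Gclm was at -0.60 and -0.50. For Txnrd1 they were 1.48 and 0.03. The CT replicates, in Ly6Chigh and Ly6Clow, were 0.66 and 0.51 apart for Txnrd1, 0.63 and 0.28 for Srxn1 and 0.28 and 0.55 for Gclm, so the Gclm difference in Ly6Clow was within that gap.

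Over both subsets, limma called 0 of the 9 genes in this comparison, against 0.588% of all genes, and 4 of the 9 were under an unadjusted p of 0.05, against 14.3%. Gsr had a log2FC of 0.80 (SE 0.14, interval 0.49 to 1.12, adjusted p = 0.0258), which misses both the 0.01 limit and 2-fold. Nfe2l2 was at -0.60 (SE 0.13, interval -0.91 to -0.30, adjusted p = 0.0647), Srxn1 at -1.02 (SE 0.33, interval -1.78 to -0.27, adjusted p = 0.204) and Gclm at -0.55 (SE 0.22, adjusted p = 0.292). Txnrd1 was at 0.76 (interval -0.05 to 1.57, adjusted p = 0.385). The other 4 genes lay between -0.27 and 0.25. Other cell types moved too. Of 8 markers each, 5 NK cell, 2 erythroid and 1 platelet marker were called lower in T2DM, with median log2FC of -2.51, -1.04 and -1.23, and all 8 of each list were below 0. In the other direction, 2 of 8 classical MC and 1 of 8 neutrophil markers were called higher, with median log2FC of 0.63 and 1.45. Above 0 were 8 of the former and 7 of the latter. Their part in the members' values was not tested. The median of the 9 genes was 0.01, so the members did not lie on 1 side.

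Likeness to Nfe2l2 was measured as the root mean square difference of log2 values after each gene was centred on its own mean. Among the members, Srxn1 was nearest to Nfe2l2 with 0.288, before Gclm with 0.298 and Gclc with 0.323, and Gsr was farthest with 0.762. This distance also depends on how much a gene varied, with an SD of 0.157 for Gclc, 0.281 for Gclm and 0.880 for Gsr. A nearly flat gene can thus rank near without sharing the pattern. Gclc and Gclm would not pass the SD limit of 0.3 used for all genes below. The SD of Nfe2l2 itself was 0.356, so the 3 nearest differed from it by almost as much as it varied. Of 5371 genes with a mean of at least 3 and an SD of at least 0.3, the most like it were Cog8 with 0.112, Cep44 with 0.114, Sec14l1 with 0.116, Dctn1 with 0.130 and Ibtk with 0.147. These 5 genes encode a Golgi tethering subunit, a centriole protein, a lipid-binding domain protein, a dynactin subunit and an inhibitor of Bruton tyrosine kinase.

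The wider pathway was described with 75 further genes, of which 70 were analysed, on 6 lists chosen with earlier results of these data known. Over the 8 libraries 19 were called higher and 5 lower in Ly6Chigh MCs, and 46 were not called, against 5.37% of all genes called higher and 6.76% called lower, with a median log2FC of 0.51 against -0.08 for all genes. The counts of the single lists below are to be read against the same 2 shares. With equal sums 9 were called higher, so the number rests on the scaling. The count over all 16486 genes fell too, from 886 called higher to 503 with equal sums. In CT alone 9 were called higher and 1 lower, against 2.1% and 1.43% of all genes. In T1DM against CT, T2DM against CT, T2DM against T1DM and the change of the subset difference, 0 of the 70 were called by limma, against 0%, 0.297%, 0.588% and 0% of all genes in that order, so a count of 0 does not set this list apart.

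The list named NADPH production, after the reductant used by Gsr and Txnrd1, had the highest median of the 6 lists, 1.27. On it 4 of 6 genes were called higher and 0 lower. Not every gene on it makes NADPH, as Taldo1 does not do so itself. Idh1 (cytosolic isocitrate dehydrogenase) had a log2FC of 2.50, Pgd (6-phosphogluconate dehydrogenase) of 1.82, Taldo1 (transaldolase) of 1.34 and G6pdx (glucose-6-phosphate dehydrogenase) of 1.21, the latter with 23.6% of its 31-base stretches shared with other genes. Idh1 stood at 7.99, 7.93, 7.85 and 8.60 in the Ly6Chigh libraries of CT (both), T1DM and T2DM mice, against 5.88, 5.55, 5.62 and 5.32 in the Ly6Clow ones, with no overlap.

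Of the 15 genes of glutathione synthesis and use, 5 were called higher and 1 lower, against the 5.37% and 6.76% of all genes. Mgst1, a membrane-bound glutathione transferase that also stood on the list of classical MC markers, had a log2FC of 2.65 (SE 0.11, limma adjusted p = 1.22e-06), with values of 7.08 to 7.61 in Ly6Chigh and 4.30 to 4.97 in Ly6Clow libraries. Mgst2, which can make leukotriene C4, went the other way with -2.29 (SE 0.28, adjusted p = 0.000344). Gstm1, a cytosolic glutathione transferase, was at 1.87, with 28.8% of its stretches shared with other genes, and Gpx3, a secreted glutathione peroxidase, was at 1.84.

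Of the 12 thioredoxin and peroxiredoxin genes, 3 were called higher and 0 lower. Prdx5, a mitochondrial and peroxisomal peroxiredoxin, had a log2FC of 2.38 (SE 0.10), Prdx6, which uses glutathione, of 1.25, and Sesn2, a stress-induced sestrin, of 1.11. On the haem and iron list of 10, Blvra, which reduces the biliverdin made by haem oxygenase, was called at 1.03, Ftl1 (ferritin light chain) at 1.02 with 64.1% of its stretches shared, and Tfrc (transferrin receptor) was lower at -2.05.

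Among 15 regulators and partners of NRF2, 3 were called higher and 2 lower. Nfe2, an NRF2 relative of the same family, had a log2FC of 1.41 (SE 0.12, limma adjusted p = 5.76e-05), and the repressor Bach1 one of 1.10 (SE 0.08, adjusted p = 1.82e-05). Bach1 stood at 8.12, 8.06, 8.28 and 8.33 in the Ly6Chigh libraries in the same order, against 6.96, 7.09, 7.20 and 7.16 in the Ly6Clow ones. Mafg, a small MAF partner, was at 1.04, and Bach2, a repressor known from B cells, was lower at -2.77 (SE 0.47, adjusted p = 0.00213), in the same direction as the B cell markers. Hmox1 and its repressor Bach1 were both higher in Ly6Chigh MCs.

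Of 12 genes for superoxide removal and detoxification, 2 were called higher, Ptgr1 (prostaglandin reductase 1) at 2.21 and Akr1a1 (an aldehyde reductase) at 1.39, and 1 lower, Ephx1 (microsomal epoxide hydrolase) at -2.78. Of the pathway genes named, Mafg, Gpx3, Ptgr1, Sesn2, Blvra, Ftl1 and Bach2 were not called when some CT library or diabetic group was left out. With equal sums Bach1, Mafg, Gpx3, Prdx6, Sesn2, Blvra, Ftl1, G6pdx and Ptgr1 were not called, and after quantile normalization Bach1, Mafg, Ftl1 and G6pdx were not. In the plot of pathway genes the NADPH list has no point below 0.

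**Figure D4:**
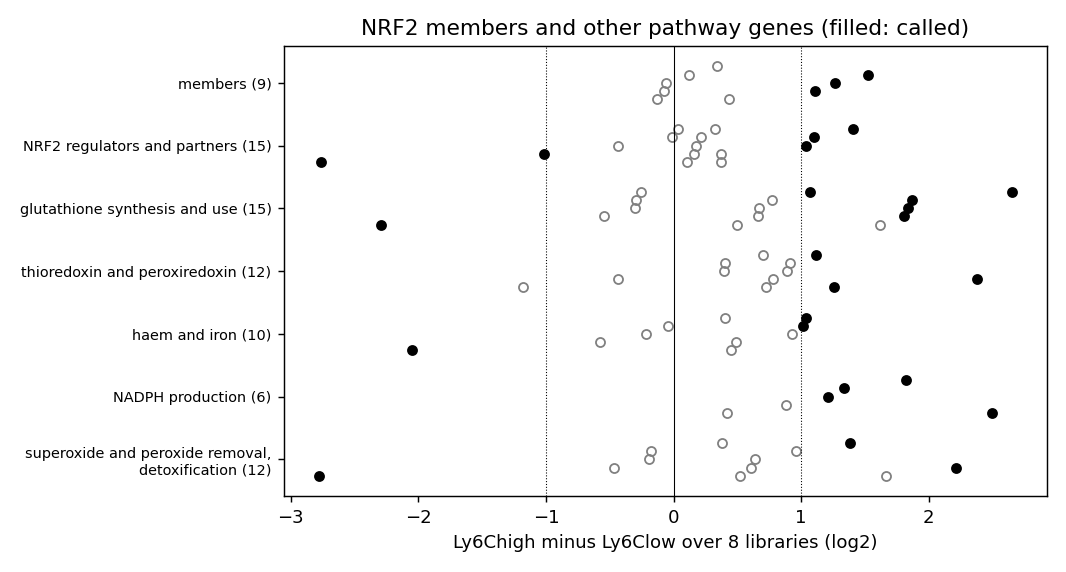
Ly6Chigh minus Ly6Clow log2FC over 8 libraries (x axis) of the 9 members and of the 70 further pathway genes by list (y axis, number of genes in parentheses), with 1 point per gene, filled where called. Dotted lines mark 2-fold. The highest point is Mgst1 at 2.65 and the lowest Ephx1 at -2.78, and all points of the list named NADPH production lie above 0.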

How the data were processed

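The deposited values are normalized log2 expression per gene symbol. Per the labels, the authors quantified transcripts by pseudoalignment in Kallisto 0.45 and brought them to gene level with tximport 1.12.3 (R 3.6.1). The processing notes name mm10. How libraries were scaled, how low genes were filtered and whether sequencers were adjusted for is not given in the sources used here. Linear sums of a library ranged from 838696 to 1090019. Counts are not part of these values, so the reads behind a value are unknown and precision is known only from the CT replicates, which correlated across genes at 0.968 in both subsets. Whether values are per transcript length is not stated, so levels were not compared between genes.

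Libraries were assigned to groups by the sample labels. The deposited log2 values entered limma 3.58.1 (lmFit, then eBayes with a variance trend, R 4.3.3) as they were, with Benjamini-Hochberg adjustment across all 16486 genes. The CT comparison used 4 libraries, the others all 8 with subset and mouse group as terms, and the change of the subset difference used 4 groups with T1DM and T2DM together. Single diabetic libraries were given as differences with no test. The criteria for calling a gene are those of the paper. The script was tested on simulated data.

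The members and all gene lists were chosen with earlier results of these data known. Named genes are all members, in each pathway list up to 4 called genes with the largest log2FC, and the 5 genes most like Nfe2l2. Promoter windows and gene positions are from RefSeq (GRCm38.p6), and shared stretches of 31 bases from GENCODE M21 transcripts. Alternatives were a filter at a mean log2 value of 1, adding 1 on the linear scale, quantile normalization, scaling to equal sums or medians, no variance trend, 0.05 as the adjusted p limit, a block for the replicate number, and omission of single CT libraries or of 1 diabetic model. Figures were made in Python 3.11.15 with matplotlib 3.10.9.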

Additional observations from a re-analysis of the deposited data

Results flagged for a closer look

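Gsr is listed here because its adjusted p between the diabetic models was below 0.05. The fit is the one reported above, not a further test. T2DM minus T1DM over both subsets was 0.80 on the log2 scale (limma adjusted p = 0.0258), below 0.05 but not called at the 0.01 and 2-fold limits, with 1 library per model and subset. The adjusted p was 0.194 without the variance trend, 0.0637 with the replicate number as a block, and 0.0163 to 0.0253 with the low-value filter, the linear offset and the other scalings. Leaving out a CT library, which enters only the estimate of the spread, gave adjusted p-values of 0.0493 to 0.0622.

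Hmox1 and Prdx1 are listed because they had opposite signs in the 2 subsets of T2DM mice. Each T2DM library also had to lie outside both CT libraries of its subset by more than these differed. Of all genes, 45.3% in Ly6Chigh and 41.5% in Ly6Clow lay that far outside. The share that also had opposite signs was not counted. Hmox1 was 0.30 above the CT mean in Ly6Chigh and at -0.34 relative to it in Ly6Clow. Prdx1 was 0.25 above it in Ly6Chigh and at -0.24 in Ly6Clow. With CT and T2DM libraries only, the subset difference was larger in T2DM by 0.64 for Hmox1 and by 0.49 for Prdx1. These are the values the 2 genes were chosen by, and each T2DM subset has 1 library. They give no test of either gene.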

How the results depend on the processing

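In CT mice the count of 2 NRF2 genes called between the subsets went to 1 with 1 added on the linear scale, with quantile normalization, with equal sums and with equal medians, and to 0 without the variance trend. Of all genes, 3.52% were called in the main fit. The share was 4.08%, 4.2%, 3.44% and 4.56% with these changes in the same order, and 0% without the trend. The member count was 3, with Hmox1, under the low-value filter and at an adjusted p limit of 0.05. There the share of all tested genes called rose too, to 8.69% and 11.7%. Leaving out each CT library in turn gave 0 to 0, in fits that called 0 genes of the whole table. Over 8 libraries the 3 called genes became 1 with equal sums, and the other pathway genes called higher went from 19 to 9. All genes called higher went from 886 to 503. Those called lower went from 5 to 3 without the variance trend and to 3 without the T1DM libraries. Equal sums also moved the share of called genes that were higher, over the whole table, from 44.3% to 22.1%, and in CT from 59.6% to 36.5%. The count of members past 2-fold, 0 in each diabetic library, ran from 0 to 1 without single CT libraries in T1DM Ly6Chigh and T2DM Ly6Chigh (Txnrd1) and in T2DM Ly6Clow (Srxn1), where quantile normalization also gave 1.

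The sign turned for genes near 0. Over 8 libraries, Slc7a11 was at 0.056 with quantile normalization and between -0.19 and 0.064 (without CT Ly6Clow replicate 1) when single CT libraries were left out, and Gclm at -0.18 with equal sums. Txnrd1 ran from -0.20 to 0.064 (without CT Ly6Chigh replicate 2) over the single CT libraries left out, with 0.034 without CT Ly6Clow replicate 1, and was at 0.20 without the T1DM libraries. The change of the subset difference was -0.015 for Gsr and -0.059 for Prdx1 without the T2DM libraries. The cause was not tested.

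With the replicate number as a block, 0 members were called in CT. That fit called 0 of the 16486 genes, so it says nothing about single genes. The deviations of same-numbered CT libraries correlated at 0.00892, so the numbers were not taken to pair the samples. With 1 or 2 libraries per group and no counts, neither the depth behind a value nor the spread between mice is known.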
